A study of Mus musculus with 6 samples.

Results

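Mitochondrial ribosomal proteins were followed in the spleens of mice that overexpressed AIMP2-DX2 and of their control littermates. They were taken as every probe set annotated to exactly 1 gene symbol that begins with Mrpl (large subunit) or Mrps (small subunit) followed by a digit, with the probe set of highest mean kept for the 9 genes that had 2. This gave 71 genes of the 22180 measured, 43 of the large and 28 of the small subunit. The rule used symbols and mean levels and not the comparison between the groups, but it was set with earlier results of these data known. The mouse gene table used here lists 78 protein-coding genes of this naming. The other 7 (Mrpl30, Mrpl33, Mrpl41, Mrpl43, Mrpl44, Mrpl53 and Mrps6) lay only on probe sets that also carry another gene's symbol.

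Each group held 3 spleens of 1-year-old mice, with 1 Affymetrix array per spleen. The DX2 mice had the genotype CAG-rtTA; TRE DX2/+, in which the doxycycline-dependent activator rtTA, driven by the CAG promoter that is active in most cell types, switches on a transgene for DX2, a shortened splice form of the tRNA synthetase scaffold AIMP2. The control mice had the genotype 0; TRE DX2 /+ and so carried the transgene without the activator. From 8 weeks of age both groups ate pellets with doxycycline at 6.25 mg per kg, an antibiotic that in bacteria binds the small ribosomal subunit and in mammalian cells can slow translation by the mitochondrial ribosome. Since only DX2 mice carried rtTA, its effect and that of DX2 cannot be told apart. The probe set that covers Aimp2 is shared with Eif2ak1 and gave no check of the labels. By Xist and the Y-linked transcripts, controls 1 and 2 were female and the other spleens male, so the counts over all members are also given against control 3, the only male control, and so are those differences of at least 0.20 among 29 genes tried singly that moved by over 1.5 times. In bulk tissue, fewer cells of a type and less RNA per cell cannot be told apart.

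The mitochondrial ribosome translates the few respiratory chain proteins that are encoded in mitochondrial DNA. All of its proteins are encoded in the nucleus, made in the cytosol and imported, and they join ribosomal RNAs transcribed inside the mitochondrion. Part of them have counterparts in bacterial ribosomes, and the rest were added in the mitochondrial lineage. The large subunit forms peptide bonds and feeds the chain into its exit tunnel, and the small subunit binds the messenger RNA and decodes it. In spleen, dividing lymphocytes and erythroid precursors, which build mitochondria, are among the cells that use them.

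The promoters of 5 members are shown to set the sequence beside the measurements that follow. They are the windows of 300 bases, 250 before and 50 after the start of the gene, from RefSeq (build GRCm38.p6). Mrpl34 and Mrpl57 are the 2 large subunit genes with the smallest p among those higher in DX2 spleens, Mrps24 is a small subunit gene that was higher in all 3 of them, Mrps14 was lower in all 3, and Mrps11 lies head to head with Mrpl46. Their windows are chr8:71464676-71464975 (plus strand), chr14:57825989-57826288 (plus strand), chr11:5707652-5707951 (minus strand), chr1:160194965-160195264 (plus strand) and chr7:78782881-78783180 (plus strand). Capitals mark matches, on either strand, to 4 short motifs: the ETS core CCGGAAG, an NRF1 core CGCNTGCGC, a YY1 core AAGATGGCG and the TATA box TATAAA. NRF1, the ETS factor GABP and YY1 are known as regulators of nuclear genes for mitochondria.
Mrpl34: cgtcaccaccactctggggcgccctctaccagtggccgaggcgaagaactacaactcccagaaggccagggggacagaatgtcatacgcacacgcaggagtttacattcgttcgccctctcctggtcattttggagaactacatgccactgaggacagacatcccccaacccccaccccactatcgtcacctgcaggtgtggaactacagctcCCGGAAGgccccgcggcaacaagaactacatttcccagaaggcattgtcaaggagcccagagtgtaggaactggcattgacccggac
Mrpl57: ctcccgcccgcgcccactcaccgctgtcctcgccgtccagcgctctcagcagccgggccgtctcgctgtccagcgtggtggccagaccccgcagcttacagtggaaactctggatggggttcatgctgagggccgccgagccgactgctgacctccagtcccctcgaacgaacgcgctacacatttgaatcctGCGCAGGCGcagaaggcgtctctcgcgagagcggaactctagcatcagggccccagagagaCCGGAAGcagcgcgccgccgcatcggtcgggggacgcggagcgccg
Mrps24: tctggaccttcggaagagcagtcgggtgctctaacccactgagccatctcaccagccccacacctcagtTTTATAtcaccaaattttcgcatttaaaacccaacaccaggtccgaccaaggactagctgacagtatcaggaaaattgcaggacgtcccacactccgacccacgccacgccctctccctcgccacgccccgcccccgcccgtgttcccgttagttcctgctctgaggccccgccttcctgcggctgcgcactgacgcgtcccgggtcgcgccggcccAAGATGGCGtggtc
Mrps14: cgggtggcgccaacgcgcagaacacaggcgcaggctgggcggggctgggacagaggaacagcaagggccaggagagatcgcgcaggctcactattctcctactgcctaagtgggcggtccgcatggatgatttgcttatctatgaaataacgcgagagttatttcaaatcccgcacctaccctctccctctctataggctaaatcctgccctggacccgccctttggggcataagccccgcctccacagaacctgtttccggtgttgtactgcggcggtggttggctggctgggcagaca
Mrps11: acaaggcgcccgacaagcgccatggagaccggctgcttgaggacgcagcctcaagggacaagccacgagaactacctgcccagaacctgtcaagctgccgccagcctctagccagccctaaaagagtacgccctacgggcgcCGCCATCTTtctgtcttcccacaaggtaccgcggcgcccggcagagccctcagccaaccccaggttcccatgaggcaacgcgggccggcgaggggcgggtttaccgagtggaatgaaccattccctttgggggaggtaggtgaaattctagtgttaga

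Promoters were found for 62 of the 71 genes (68 windows). The ETS core was present in 33.8% of these windows, against 8.86% of all 32851 windows and 11.6% of those of protein-coding genes. The NRF1 core was present in 20.6%, against 6.25% and 8.58%, and the YY1 core in 11.8%, against 1.40% and 1.83%. The letters TATAAA, at any place in the window, were present in 7.35%, against 13.6% and 12.6%. Windows of the small subunit held the ETS core in 11 of 26, and those of the large subunit in 12 of 42. The NRF1 core ran the other way, in 4 of 26 and 10 of 42. The window of Mrpl34 shows 1 ETS core and that of Mrpl57 an NRF1 and an ETS core. That of Mrps24 shows a YY1 core after its start and, well before it, TATAAA on the opposite strand. That of Mrps11 shows a YY1 core on the opposite strand before its start, and that of Mrps14 none of the 4. Genes with an ETS core had a median difference between DX2 and control of 0.19 (log2, 23 genes) and those without it 0.13 (39 genes). Within the large subunit these medians were 0.20 (12 genes) and 0.20 (25 genes), and within the small subunit 0.12 (11 genes) and 0.07 (14 genes). The 5 genes with the letters TATAAA, at any place in a window and on either strand, had a median of 0.32. The 57 without these letters had one of 0.14. Within the large subunit these medians were 0.36 (3 genes) and 0.19 (34 genes), and within the small subunit 0.14 (2 genes) and 0.09 (23 genes). Such a match does not show a working TATA box, and these genes are few. With and without the NRF1 core the medians were 0.16 (14 genes) and 0.16 (48 genes). A match is a description of the letters and not evidence of binding.

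Mitochondrial ribosomal protein transcripts were slightly higher in DX2 spleens, and no single gene changed past the threshold. Of the 71 genes, 63 were higher and 8 lower in DX2, against 51.6% of all genes higher. The median difference, DX2 minus control, was 0.17 on the log2 scale (1.13-fold), against 0.01 over all 22180 genes. The differences of single genes lay between -0.49 and 0.47, and their median standard error was 0.13. Thus the typical difference was close to its own error.

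With limma and Benjamini-Hochberg adjustment over all genes, no member reached an adjusted p under 0.05, where 0.316% of all genes passed (0.0361% higher and 0.28% lower). None reached 0.1 either, where 1.78% of all genes did (0.604% higher and 1.17% lower). The smallest adjusted p was 0.158, for Mrpl34. At an unadjusted p under 0.05 there were 14 higher and 2 lower members (19.7% and 2.82%, together 22.5%), against 8.13% and 7.82% of all genes (together 16.0%). This excess depended on which array was left out: the members' share was 25.4% without DX2 1, against 15.8% of all genes, and 23.9% without control 2, against 13.6%. The share was 8.45% without DX2 2, against 18.2%, and 7.04% without DX2 3, against 12.1%. It was 8.45% without control 1, against 11.4%, 9.86% without control 3, against 11.9%, and 5.63% against control 3 alone (the sex term), against 8.85%. The 3 DX2 values lay above the 3 control values for 19 members (26.8%, against 10.7% of all genes) and below them for 2 (2.82%, against 11.2%). Members measured on the same arrays share each array's deviation, so these counts are not counts of independent events.

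**Figure D1:**
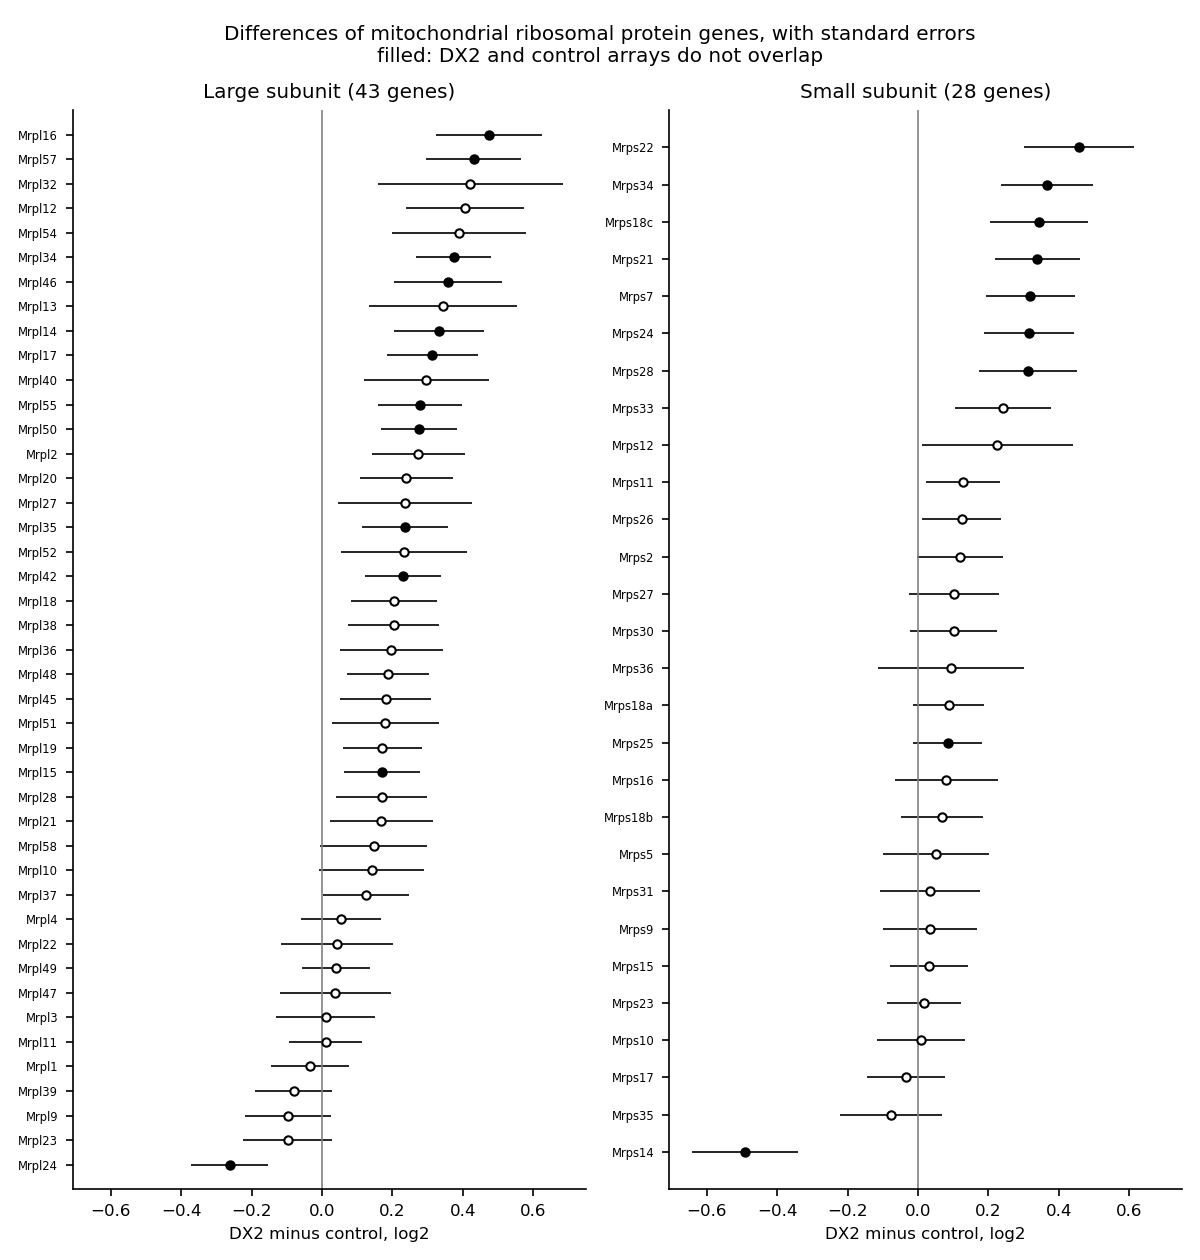
Difference between DX2 and control (log2, horizontal axis) of each of the 43 large and 28 small subunit genes (rows), with the standard error from limma as a bar. Filled points mark genes whose 3 DX2 and 3 control arrays do not overlap. The points run from -0.49 for Mrps14 to 0.47 for Mrpl16, with 63 of 71 to the right of 0.

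Among large subunit genes, Mrpl34 had the smallest p. Mrpl34, the counterpart of bacterial protein L34, read 7.30, 7.32 and 7.51 in DX2 spleens, against 7.02, 7.01 and 6.98 in control spleens (log2). The 3 controls lay within 0.05 of each other and every DX2 spleen was above them. Its difference was 0.37 (SE 0.11), or 1.3-fold, with an adjusted p of 0.158 in limma's test. Mrpl57, a protein with no bacterial counterpart, read 6.10, 6.46 and 6.19 in DX2, against 5.68, 5.95 and 5.83 in control spleens. All 3 DX2 values exceeded the controls, with DX2 2 the highest and control 1 the lowest. The difference was 0.43 (SE 0.13, adjusted p = 0.192 in limma). Mrpl16, the counterpart of L16, which in bacteria helps to position transfer RNA on the large subunit, read 6.74, 7.06 and 7.12 in DX2, against 6.47, 6.70 and 6.33 in control spleens. DX2 1 lay only just above control 2. It had the largest difference of the 71 genes in the upward direction, 0.47 (SE 0.15, adjusted p = 0.194 in limma).

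A further 8 large subunit genes were higher in every DX2 spleen than in every control. Mrpl14 averaged 6.18 ± 0.12 in DX2 and 5.84 ± 0.17 in control spleens (log2, SD, n = 3 each), and its lowest DX2 value, 6.04, sat beside its highest control, 6.03. Mrpl50 averaged 7.39 ± 0.07 in DX2 spleens, against 7.11 ± 0.10 in controls (SD, n = 3 each). Mrpl17, the counterpart of L17 near the exit tunnel, averaged 7.31 ± 0.20 in DX2 spleens, against 7.00 ± 0.06 in controls (SD, n = 3 each). Their differences were 0.33, 0.28 and 0.31 with adjusted p of 0.267, 0.270 and 0.292 in limma, and that of Mrpl50 was 0.17 against control 3 alone. The other 5 of these were Mrpl46, Mrpl55, Mrpl42, Mrpl35 and Mrpl15, with differences of 0.36, 0.28, 0.23, 0.24 and 0.17. That of Mrpl46 was 0.21 without control 1.

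Several large subunit genes had wide differences but overlapping groups, with DX2 2 above the other DX2 spleens. Mrpl32, the counterpart of L32, read 6.41, 7.28 and 6.48 in DX2, against 5.97, 6.59 and 6.34 in control spleens. Control 2 exceeded DX2 1 and DX2 3. Its difference of 0.42 had an SE of 0.26. Mrpl54 read 7.56, 8.22 and 7.82 in DX2, against 7.24, 7.63 and 7.56 in control spleens, and Mrpl13 read 6.84, 7.55 and 7.11, against 6.58, 7.10 and 6.78. In both, the highest control reached or passed the lowest DX2 value. Mrpl12, the counterpart of the stalk protein L7/L12 that recruits translation factors, had a difference of 0.41 (SE 0.17, adjusted p = 0.297 in limma) on the probe set used and -0.03 on its other one, so its direction is uncertain. Mrpl58, a peptidyl-tRNA hydrolase that became part of the large subunit, averaged 7.52 ± 0.27 in DX2 spleens, against 7.37 ± 0.09 in controls (SD, n = 3 each), a difference of 0.15 (SE 0.15).

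The large subunit genes with lower values in DX2 were Mrpl24, Mrpl9, Mrpl23, Mrpl39 and Mrpl1. Mrpl24, the counterpart of L24, read 8.41, 8.25 and 8.26 in DX2, against 8.50, 8.68 and 8.52 in control spleens. All 3 DX2 values were below the controls, by a mean of 0.26 (difference -0.26, SE 0.11, adjusted p = 0.303 in limma). The other 4 overlapped between groups, with differences from -0.10 to -0.03. Mrpl52 read 8.09, 8.71 and 8.68 in DX2, against 8.36, 8.20 and 8.22 in control spleens, so that DX2 1 lay below every control and the other DX2 spleens above them. Its difference of 0.23 was 0.43 without DX2 1, 0.13 without DX2 2 and 0.14 without DX2 3. Mrpl27, the counterpart of L27, which in bacteria reaches the site of peptide bond formation, had a difference of 0.24 with an SE of 0.19, which was 0.08 without control 1, 0.13 without DX2 3 and 0.42 without control 2.

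**Figure D2:**
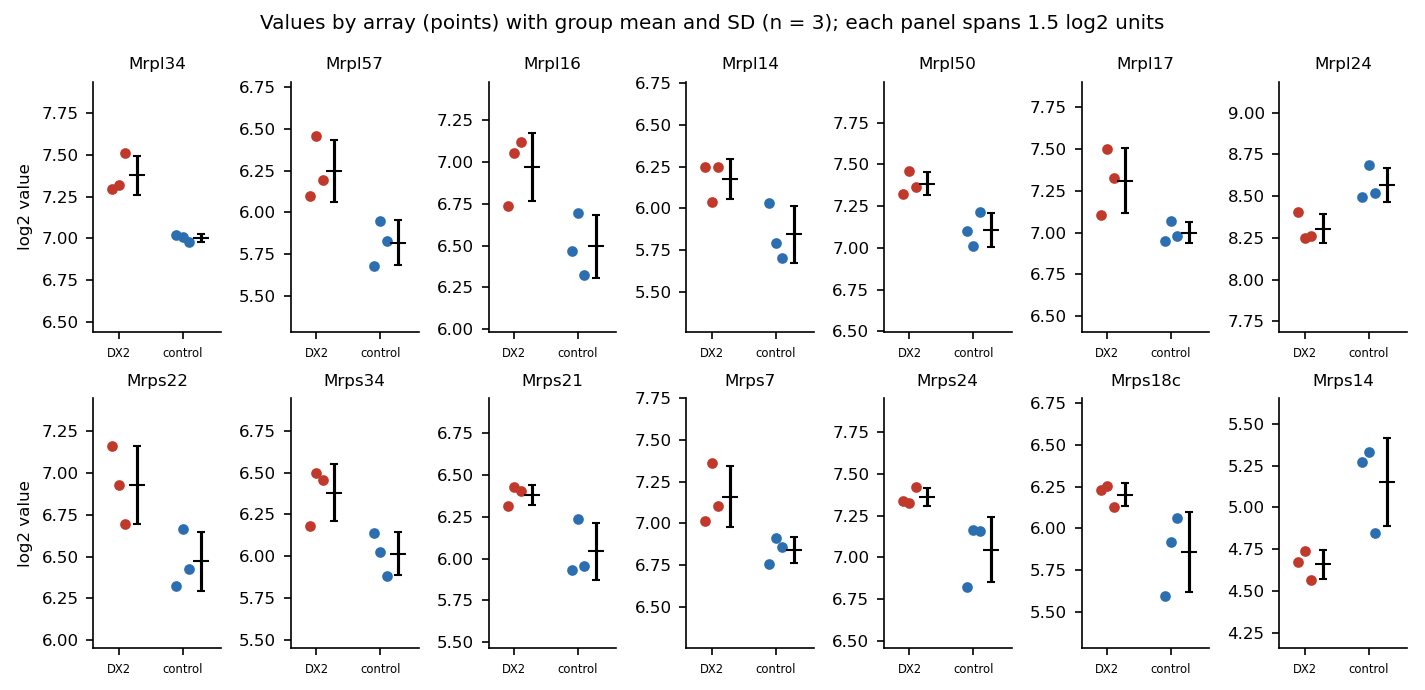
Log2 values (vertical axis, each panel spanning 1.5 units) on each array for 14 genes, DX2 spleens in red and control spleens in blue, with the group mean and SD (n = 3) beside the points. The 6 large and 6 small subunit genes of smallest p among those higher in DX2 are shown with Mrpl24 and Mrps14, the 2 genes that were lower in all 3 DX2 spleens.

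In the small subunit, Mrps14 was the only one of 3 genes with lower means whose DX2 values all lay below the controls. Mrps14, the counterpart of S14 in the head of the subunit, read 4.67, 4.74 and 4.57 in DX2, against 5.27, 5.33 and 4.85 in control spleens. The DX2 spleens were close together and below all controls, and control 3, the male one, lay nearest to them. The difference was -0.49 (SE 0.15), 1.41-fold lower, with an adjusted p of 0.184 in limma, and against control 3 alone (the sex term) it was -0.19. Mrps22, a protein with no bacterial counterpart, had the largest upward difference of the subunit. It read 7.17, 6.93 and 6.69 in DX2, against 6.32, 6.66 and 6.43 in control spleens, and here DX2 1 was the highest and DX2 3 only just above control 2. Its difference was 0.46 (SE 0.16, adjusted p = 0.219 in limma).

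The other small subunit genes that were higher in every DX2 spleen were Mrps34, Mrps21, Mrps7, Mrps24, Mrps18c, Mrps28 and Mrps25. Mrps34 averaged 6.38 ± 0.17 in DX2 spleens, against 6.01 ± 0.13 in controls (SD, n = 3 each). Mrps21, the counterpart of S21, averaged 6.38 ± 0.06 and Mrps24, the counterpart of S3 where the messenger RNA enters, 7.36 ± 0.05 in DX2, against 6.04 ± 0.17 and 7.05 ± 0.20 in control spleens (SD, n = 3 each). For both the DX2 spleens were close together and the spread lay among the controls. The 0.32 of Mrps24 was 0.20 both without control 1 and against control 3 alone. Mrps7, the counterpart of S7 in the head, had a difference of 0.32 (SE 0.13). Adjusted p over these 4 genes ran from 0.237 to 0.288 in limma. Mrps25 separated the groups with a difference of only 0.08, since its DX2 values ran from 6.71 to 6.73 and its control values from 6.57 to 6.67.

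Many genes of both subunits hardly differed. In the large subunit Mrpl4 (0.05), Mrpl22 (0.04), Mrpl49 (0.04), Mrpl47 (0.04), Mrpl3 (0.01) and Mrpl11 (0.01) had differences under their errors. The small subunit held such genes too. Mrps15 (0.03), Mrps9 (0.03), Mrps31 (0.03), Mrps23 (0.02) and Mrps10 (0.01) had differences well under their errors, and Mrps35 and Mrps17 had differences of -0.08 and -0.03. Mrps35 read 5.92, 6.40 and 6.33 in DX2, against 6.27, 6.29 and 6.31 in control spleens, so that its negative mean came from DX2 1. Mrps12, the counterpart of S12 at the decoding centre, read 5.76, 6.45 and 5.85 in DX2, against 5.73, 6.08 and 5.57 in control spleens, with DX2 2 far above the rest.

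Some symbols do not give the place of the protein. Mrps30 and Mrps18a sit in the large subunit of the mammalian mitochondrial ribosome, and Mrps36 is known as a component of the oxoglutarate dehydrogenase complex. Their differences were 0.10 (SE 0.12), 0.09 (SE 0.10) and 0.09 (SE 0.21). The 3 relatives of bacterial S18 differed from one another in size: Mrps18c read 6.23, 6.25 and 6.13 in DX2, against 5.60, 5.92 and 6.06 in control spleens, while Mrps18b (0.07) and Mrps18a (0.09) had small differences. The 0.34 of Mrps18c was 0.21 without control 1 and 0.14 against control 3 alone, and it is uncertain, as its other probe set gave -0.18, and that of Mrps18b gave -0.13. Of the 9 genes with 2 probe sets, Mrpl10, Mrpl12, Mrpl47, Mrps17, Mrps18b and Mrps18c had opposite signs on them.

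Large subunit genes had a median difference of 0.20 (38 of 43 higher) and small subunit genes one of 0.10 (25 of 28 higher). Between their quartiles the large subunit genes lay between 0.09 and 0.29, and the small subunit genes between 0.03 and 0.26. The mean log2 value of the large subunit genes was 6.70, 6.92 and 6.85 in DX2, against 6.55, 6.73 and 6.64 in control spleens. That of the small subunit genes was 6.50, 6.65 and 6.60 in DX2, against 6.41, 6.52 and 6.44 in control spleens. In both subunits DX2 1 lay below control 2, so the groups overlapped. The order of the 3 arrays was the same for both subunits and in both groups, with replicate 2 highest and replicate 1 lowest. Each DX2 array lay above the control of the same number. Whether same-numbered spleens shared a batch was not tested. The large minus small subunit mean was 0.20, 0.27 and 0.25 in DX2, against 0.13, 0.21 and 0.20 in control spleens, which overlapped too. Its size has no meaning of its own, since it compares different probe sets, and its means, 0.24 ± 0.03 in DX2 spleens and 0.18 ± 0.04 in controls (SD, n = 3 each), differed by 0.06. With Mrps30 and Mrps18a counted in the large subunit and Mrps36 left out, the medians were 0.19 and 0.10.

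**Figure D3:**
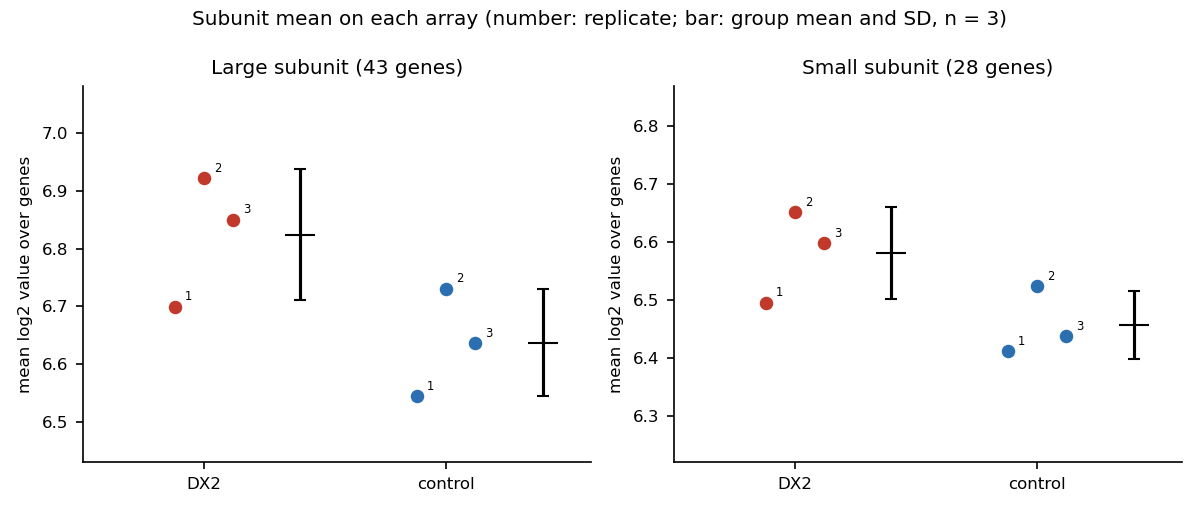
Mean log2 value (vertical axis) over the 43 large and the 28 small subunit genes on each array, DX2 in red and control in blue, with the replicate number beside each point and the group mean and SD (n = 3) as a bar. DX2 2 is the highest and control 1 the lowest in both subunits, and DX2 1 lies below control 2.

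Genes with bacterial counterparts and those added in mitochondria had similar medians, and their difference was not tested. With the subunit taken from the symbol, the large subunit median was 0.17 over 27 genes with a counterpart and 0.22 over 16 without. That of the small subunit was 0.09 over 17, Mrps18a among them, and 0.10 over 10, Mrps30 among them. Of the 26 genes without a counterpart 24 were higher in DX2, and of the 44 with one 38 were.

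The arrays within a group were not alike. DX2 2 held the highest value of the 6 arrays for 36 of the 71 genes, against 22.9% of all genes, and control 1 the lowest for 33, against 17.4% of all genes. Set against the control mean, 62 genes were higher in DX2 2 (median 0.24), 62 in DX2 3 (median 0.19) and 42 in DX2 1 (median 0.04). Set the other way, the DX2 mean was above control 1 for 61 genes (median 0.23), above control 2 for 48 (median 0.09) and above control 3 for 57 (median 0.17). Without control 1, 53 genes were higher, and without DX2 2, 55 were.

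**Figure D4:**
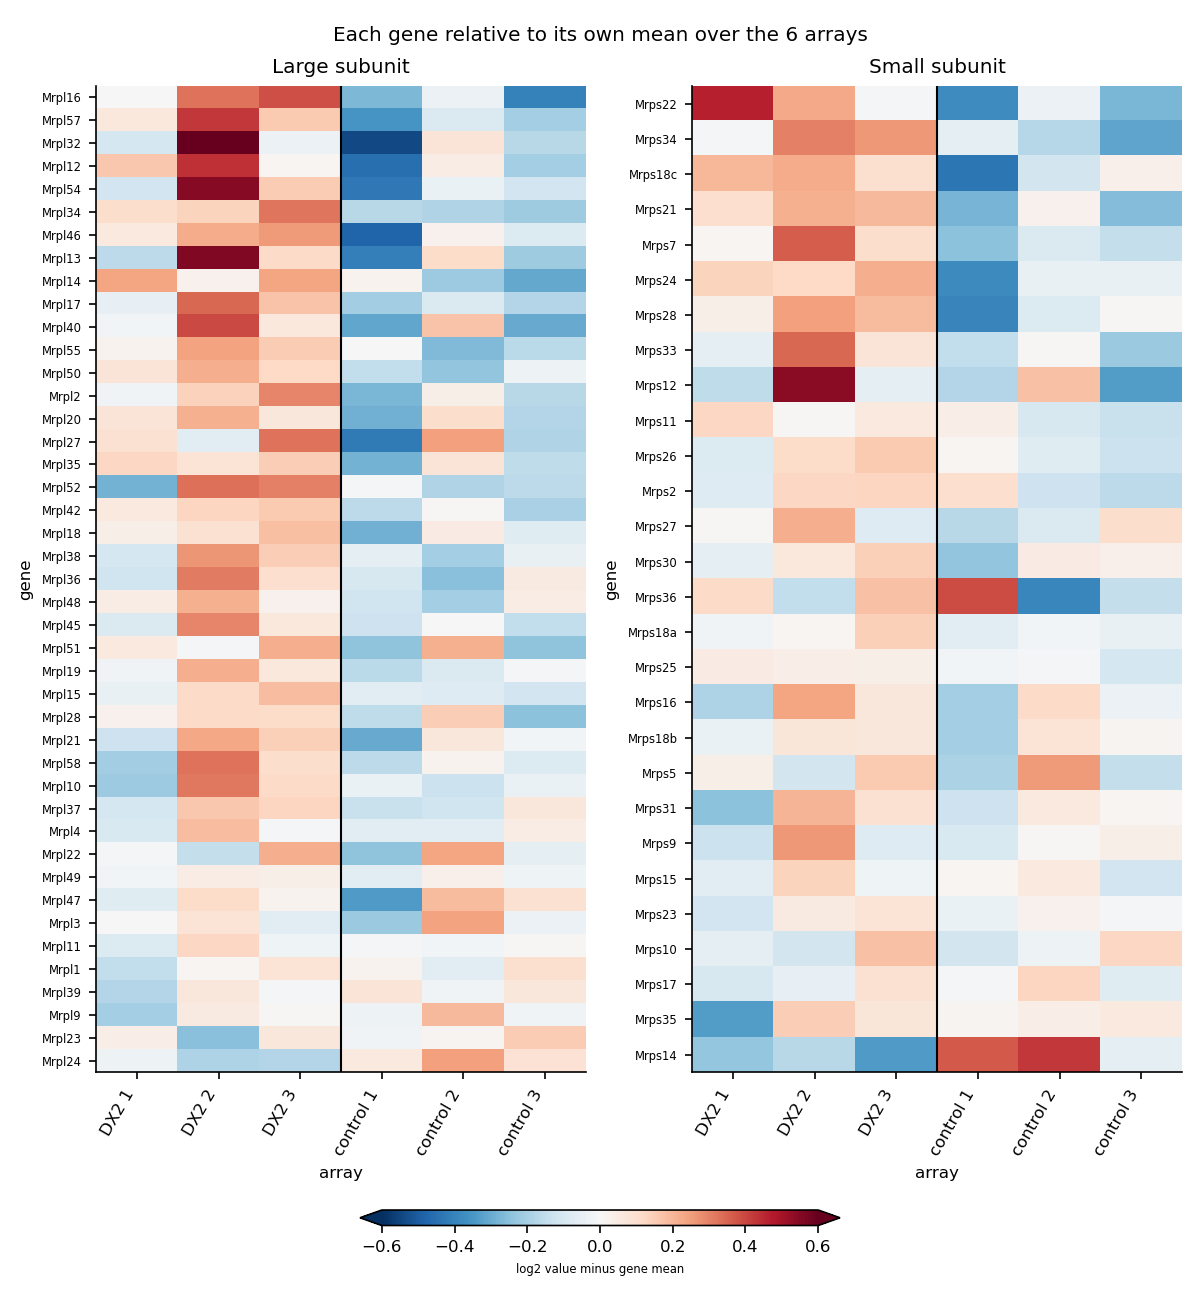
Each gene (rows, ordered by its difference) on each array (columns, DX2 left of the line) as its log2 value minus its own mean over the 6 arrays, red above and blue below. The column of DX2 2 holds the highest value for 36 of 71 genes, and that of control 1 the lowest for 33.

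Transcripts of particular cells varied across the same arrays. The 11 erythroid markers measured (of 14 listed, 11 higher in DX2) averaged 9.74, 7.31 and 9.40 in DX2, against 6.21, 8.16 and 8.08 in control spleens, and the 15 cell cycle genes measured (of 16 listed, 15 higher) 8.74, 8.05 and 8.61, against 6.91, 7.82 and 7.69. Control 1, with the lowest ribosomal protein mean, was lowest in both lists, and DX2 2, with the highest, was the lowest DX2 spleen in both. The 9 B cell markers measured (of 10 listed) averaged between 8.02 and 8.80 in DX2 and between 9.79 and 10.17 in control spleens. All 9 were lower, 3 of them past the threshold, which none passed with a replicate block or without DX2 3, control 1 or control 2. The 9 T cell markers measured (of 10 listed, 9 lower) averaged 6.36, 7.84 and 7.53 in DX2, against 7.73, 7.42 and 7.68 in controls. In this list DX2 2 and control 1 were the highest of their groups, and the lowest spleen of all was DX2 1. That spleen also had the highest mean of the 10 neutrophil markers, at 9.10, where the other 5 arrays lay between 6.89 and 7.77, and of the 7 megakaryocyte and platelet markers measured (of 8 listed), at 9.40, where they lay between 7.17 and 7.83. The 11 red pulp macrophage markers averaged between 9.42 and 9.62 in DX2 and between 8.83 and 9.02 in control spleens, and 9 of 11 were higher. The 10 handling and immediate early genes averaged between 6.18 and 6.77 in DX2 and between 5.63 and 5.89 in control spleens, and 10 of 10 were higher. The part of these cell types and of handling in the differences above was not tested.

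Other lists of mitochondrial protein synthesis had medians near 0, given as counts and medians that carry no test. Of 23 assembly factors of the mitochondrial ribosome 9 were higher and 14 lower (median -0.06), and none passed. Noa1, a GTPase needed for assembly, read 7.90, 7.67 and 7.98 in DX2, against 7.25, 7.33 and 7.33 in control spleens, a difference of 0.55 (SE 0.12, adjusted p = 0.103 in limma). Nsun4, which methylates the small subunit's ribosomal RNA and acts in joining the subunits, read 5.19, 4.84 and 5.01 in DX2, against 5.39, 5.53 and 5.64 in control spleens, a difference of -0.50 (SE 0.13, adjusted p = 0.138 in limma). Noa1 and Nsun4 separated the groups in opposite directions. In all, 5 of the 23 assembly factors separated them, near the 22.0% of all genes that did. Mettl17 (-0.40) and Mrm1 (0.56) followed with adjusted p of 0.218 and 0.237 in limma.

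Of 14 translation factors and partners 4 were higher and 10 lower (median -0.03), and none passed. Oxa1l, the insertase that receives chains from the ribosome at the inner membrane, read 8.83, 9.08 and 9.07 in DX2, against 9.47, 9.21 and 9.46 in control spleens, a difference of -0.39 (SE 0.13, adjusted p = 0.209 in limma). Gfm2, which releases subunits for reuse, differed by -0.23, and Mrrf, its partner in recycling, by 0.29. Of 8 genes that copy and transcribe mitochondrial DNA 4 were higher and 4 lower (median 0.00), with Polg2, the accessory subunit of the DNA polymerase, at -0.49 (SE 0.14, adjusted p = 0.164 in limma).

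The respiratory chain, whose mitochondrial share these ribosomes make, was nearer to the ribosomal proteins in its median. Of 78 nuclear subunit genes 68 were higher (median 0.23), and none passed. Ndufb9 of complex I read 10.20, 10.21 and 10.26 in DX2, against 9.30, 9.70 and 9.64 in control spleens (difference 0.68, SE 0.13, adjusted p = 0.084 in limma). Cox7b of complex IV differed by 0.60 (SE 0.15, adjusted p = 0.121 in limma). Of 54 cytosolic ribosomal proteins 22 were higher and 32 lower (median -0.02), and none passed, although these genes have many near-identical copies. Rpl26 differed by 0.47 and Rps20 by -0.63.

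**Figure D5:**
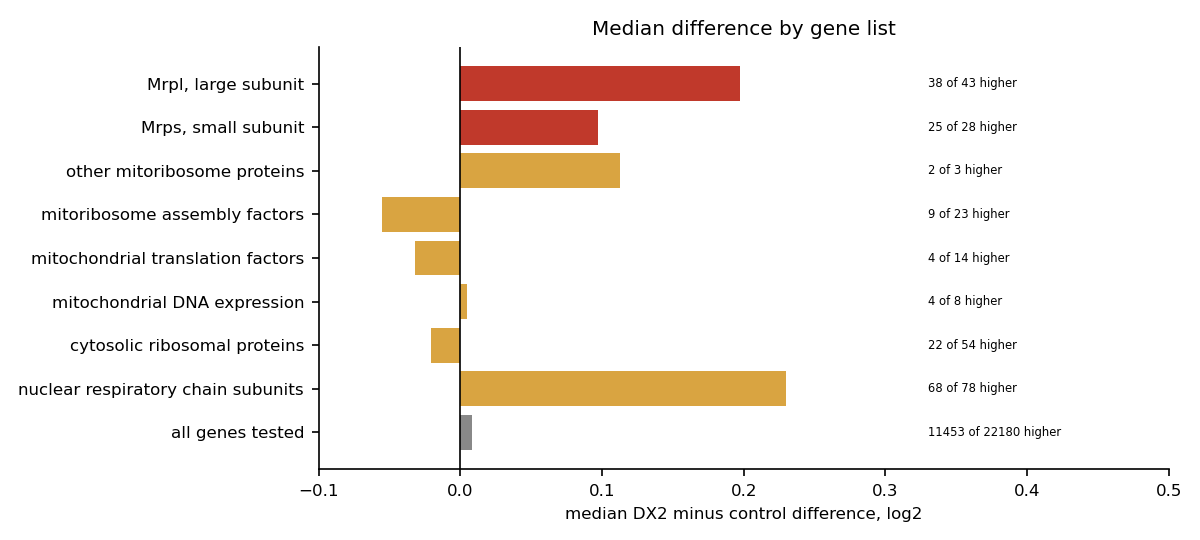
Median DX2 minus control difference (log2, horizontal axis) of the large and small subunit genes (red), of 6 related lists (yellow) and of all 22180 genes (grey), with the number of genes higher in DX2 beside each bar. The bars of both subunits and of the nuclear respiratory chain genes lie right of 0, at 0.20, 0.10 and 0.23, and that of the cytosolic ribosomal proteins at -0.02.

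Further ribosome proteins carry other names. Ptcd3, a small subunit protein that binds RNA, was the only one of 3 measured here (with Dap3 and Gadd45gip1) to pass. It read 8.56, 9.03 and 8.89 in DX2, against 10.13, 10.22 and 10.07 in control spleens, a difference of -1.31 (SE 0.14, adjusted p = 0.033 in limma). Its second probe set read 7.75, 7.66 and 7.87 in DX2, against 7.85, 7.99 and 7.91 in control spleens, a difference of -0.16 with overlap, so the fall was not seen at that size by both. The call of Ptcd3 also depended on the fit. No gene was called lower with a replicate block or without DX2 3, control 1 or control 2. Dap3, a GTP-binding protein of the small subunit, differed by 0.11, and Gadd45gip1 of the large subunit by 0.22.

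Mrpl46 of the large and Mrps11 of the small subunit start 42 bases apart on opposite strands, the only pair with overlapping windows among the 62 members whose promoters were found. Mrpl46 read 5.67, 5.83 and 5.87 in DX2, against 5.13, 5.64 and 5.53 in control spleens. Mrps11, the counterpart of S11, read 7.12, 7.00 and 7.05 in DX2, against 7.03, 6.89 and 6.86 in control spleens. Mrpl46 separated the groups (difference 0.36, SE 0.15) and Mrps11 did not (0.13, SE 0.10), and the difference between them was not tested. DX2 1 was the lowest DX2 spleen for Mrpl46 and the highest for Mrps11.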

How the data were processed

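The log2 values, from 6 arrays of biotin-labelled spleen RNA extracted with Trizol, were deposited by the authors as 1 table of 41345 probe sets, made with RMA per the submitters' processing notes. RMA corrects background, normalizes between arrays and summarises probes. The software, version and annotation behind RMA: not given in the sources used here. The log2 scale was inferred from the range (0.771 to 13.276). RMA can understate large differences.

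Of the probe sets, 23521 had 1 symbol, 1814 several and 16010 were unnamed. All 71 members matched the mouse gene table (GRCm38.p6) by Entrez number. Titles gave groups and replicate numbers. In R 4.3.3, limma 3.58.1 fitted DX2 minus control (lmFit, eBayes, no covariate, no filter), with 1 probe set per gene (highest mean). Benjamini-Hochberg adjustment was over 22180 genes. The fit was also run on simulated data with independent genes and changes larger than those of any member. That run has no bearing on changes of the members' size. Figures and counts used Python 3.11.15.

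Members and lists were chosen with earlier results of these data known. Named genes were, in each subunit, the 6 higher and 4 lower of smallest p, the 2 brightest and 2 dimmest, members with disagreeing probe sets (opposite signs, at least 0.3 apart), misplaced symbols, and up to 4 genes per related list. Others named were chosen after their values were seen. Levels of different probe sets were not compared. Over all genes, same-numbered arrays did not deviate together (correlations -0.32, -0.14 and 0.07), so replicate numbers were not treated as pairs. The mean over the members, in contrast, was highest in DX2 2 and control 2 and lowest in DX2 1 and control 1. Arrays carry no read depth, and their number limits the precision. Alternatives were a replicate block, each array left out, a sex term, a filter on dim genes, other priors, array weights, other normalizations and other probe set choices.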

Additional observations from a re-analysis of the deposited data

How the results depend on the processing

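No member passed an adjusted p of 0.05 in limma under any of the 16 alternative fits, and the lowest adjusted p were 0.0652 for Mrpl34 and 0.0759 for Mrpl16, both with array weights. As reported, without array weights, none had an adjusted p under 0.1 and 16 had an unadjusted p under 0.05, a number that ran from 4 (the sex term) to 22 (second quantile normalization or centring). The 22 were 31.0% of the members, against 17.7% of all genes with a second quantile normalization and 18.3% with centring. The number was 15 of 69 without the dimmest 40% of genes (21.7%, against 21.9% of all genes left). The count over all genes, 70 (11.4% higher in DX2), depended on the setting: 1 with a replicate block, 2 with the sex term, 2 with arrays centred on their median, 125 without the dimmest 40% of genes and 547 with array weights. It was 84 in all with a second quantile normalization (20 higher and 64 lower, 23.8% higher), 394 at an adjusted p under 0.1 and 3538 at an unadjusted p under 0.05. Without 1 array it ran from 1 to 370, the most without DX2 2.

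The median of the large subunit ran from 0.14 (without DX2 2) to 0.26 (without DX2 1) and that of the small subunit from 0.08 to 0.14 when 1 array was left out. Their gap of 0.10 ran from 0.0503 (without DX2 2) to 0.122 and was 0.0551 with the sex term. Centring moved the small subunit's median to 0.19 and that of all genes to 0.10, and 67 members were then higher. The sex term gave a median of 0.17 over the members, 57 of them higher. Over all genes the pairing by replicate number had no support, although the members' means followed the same order of replicates in both groups. The replicate block left the medians as they were and called no member.

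Of 29 named genes 21 kept their sign in every fit that held them. The other 8 had small differences: Mrpl23 was 0.0044 without DX2 2 (lowest without 1 array -0.16), Mrpl39 0.011 and Mrps35 0.0151 with centring, and Mrps35 0.0721 without DX2 1 (lowest -0.17). Mrps17 was 0.0544 with the sex term, 0.0245 with array weights, 0.0578 with centring, 0.10 as a mean of probe sets, 0.24 on the most variable one and between -0.0888 and 0.0228 without 1 array. Mrps9 was -0.0191 with the sex term, -0.0223 with array weights and between -0.0882 and 0.108 without 1 array. Mrps15 ran from -0.0289 to 0.0696 and Mrps36 from -0.0778 to 0.31 without 1 array. Mrps18b was -0.029 as a mean of probe sets, -0.13 on the most variable one and between -0.017 and 0.13 without 1 array. Why these moved was not tested. The number of arrays, 3 per group, limits what could be called: the median standard error of a member was 0.13.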

Other observations

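The 13 probe sets that carry a mitochondrial ribosomal protein symbol together with another gene's were left out above, since their signal cannot be assigned to 1 gene. In a fit of all 41345 probe sets 9 of the 13 were higher and 4 lower in DX2 (69.2% higher, against 45.6% of all probe sets). None passed, where 2 of all probe sets did (0.00484%), and 2 had an unadjusted p under 0.05 in limma (15.4%, against 16.1% of all probe sets). The probe set of Mrpl43 and Twnk, which encodes the mitochondrial DNA helicase, read 6.84, 7.21 and 7.09 in DX2, against 6.62, 6.64 and 6.61 in control spleens. All DX2 values lay above controls that were nearly equal, and the difference was 0.43 (SE 0.13, adjusted p = 0.188 in limma). The probe set of Mrpl53 and Ccdc142 read 7.69, 7.45 and 7.69 in DX2, against 7.13, 7.25 and 7.40 in control spleens, a difference of 0.35 (adjusted p = 0.257 in limma). A second probe set with both of these symbols differed by -0.13. One of the 2 probe sets of Mrpl33, shared with Babam2, was lower in all 3 DX2 spleens, at 7.93, 7.84 and 7.68, against 8.13, 7.96 and 8.23 in control spleens (difference -0.29, adjusted p = 0.334 in limma), while the other, shared with Gm38424, differed by 0.09.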
